A study of Sus scrofa with 2 samples.

Results

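The miR-30 family was represented by 8 of the 355 probes on the arrays, found as every name that begins with ssc-miR-30 followed by a letter or a hyphen. Of the 8 probes, 5 read the 5p arm (ssc-miR-30a-5p, ssc-miR-30b-5p, ssc-miR-30c, ssc-miR-30d and ssc-miR-30e-5p) and 3 read the 3p arm (ssc-miR-30a-3p, ssc-miR-30b-3p and ssc-miR-30e-3p). The 5p probes gave strong and nearly equal signals in both breeds, with log2 ratios (Bama minipigs over Landrace pigs) between -0.10 and 0.19. The 3p probes were far dimmer, and ssc-miR-30e-3p was 1.85-fold brighter in Bama minipigs (log2 ratio 0.89).

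Anterior pituitary RNA came from 20-day-old female piglets of the Bama minipig, a small Chinese breed, and of the Landrace, a large lean commercial breed. RNA of 3 pigs was combined into 1 pool per breed, and each pool was hybridized to 1 Cy5 array. There was thus no replicate of either breed, no spread between pigs can be given, and no test was made. The deposited values are background-subtracted, LOWESS-normalized signal intensities on a linear scale, and no further scaling was applied here unless stated. Over all probes, the signals summed to 695596 on the Bama array and 671754 on the Landrace array, with medians of 114 and 95.1. The highest signal on each array was that of ssc-miR-7, a miRNA known to be abundant in pituitary and other endocrine cells, at 35031 and 42831. A ratio was read only where both signals were 200 or more, which held for 145 probes and for 6 of the 8 miR-30 probes. The number of arrays limits the precision of every value.

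A miRNA precursor is a hairpin from which a duplex is cut, and the 5p arm and the 3p arm are the strands of this duplex. One strand is usually kept in the silencing complex and guides it to mRNAs through its seed, bases 2 to 8, while the other is mostly degraded. In the miR-30 family the 5p arm is the usual guide strand. The family is known for restraining epithelial-to-mesenchymal transition in cultured islet cells, for targeting the autophagy gene BECN1 and for a part in the development of fat cells.

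The sequences of the 5p arms are shown because their common seed defines the family, and they differ only outside it. The seed is in capitals, and each sequence runs 5′ to 3′.
ssc-miR-30a-5p: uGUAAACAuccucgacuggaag
ssc-miR-30d: uGUAAACAuccccgacuggaagcu
ssc-miR-30e-5p: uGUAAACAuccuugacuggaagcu
ssc-miR-30b-5p: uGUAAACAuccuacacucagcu
ssc-miR-30c: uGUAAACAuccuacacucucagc

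These 5 were the only probes on the arrays with the seed GUAAACA. Counted from 1 at the 5′ end, ssc-miR-30d differs from ssc-miR-30a-5p by U12C and ssc-miR-30e-5p differs from ssc-miR-30a-5p by C13U, and both are 2 bases longer at the 3′ end. ssc-miR-30b-5p and ssc-miR-30c form another subgroup, 3 edits (substitutions, insertions or deletions) apart. Over the 10 pairs of 5p sequences the distance ran from 2 to 7 edits. The nearest sequence outside the family was 9 to 11 edits away. How far a probe also bound its near-identical paralogs was not tested, so the 5p signals may share RNA.

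The 3p arms are shown because 2 of them share a seed and are almost identical in sequence.
ssc-miR-30a-3p: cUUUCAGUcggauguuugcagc
ssc-miR-30e-3p: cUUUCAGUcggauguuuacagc
ssc-miR-30b-3p: cUGGGAGGuggauguuuacuu

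The 3p arms of miR-30a and miR-30e differ by the single substitution G18A, written from ssc-miR-30a-3p to ssc-miR-30e-3p, and were the only probes with the seed UUUCAGU. The seed of ssc-miR-30b-3p, UGGGAGG, was carried by no other probe. The letters UGUUUAC, which are the reverse complement of the 5p seed, stand at positions 13 to 19 of ssc-miR-30e-3p and ssc-miR-30b-3p and in no other of the 355 sequences. In ssc-miR-30a-3p the substitution falls inside this stretch, so it is not matched there. The match is a feature of the letters only.

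In the RefSeq annotation of Sscrofa11.1, used for names and neighbours only, the family has 6 precursor genes in 3 neighbouring pairs. MIR30A lies beside MIR30C-2, MIR30B beside MIR30D, and MIR30E beside MIR30C-1. MIR30E and MIR30C-1 lie within the span of NFYC, which encodes a subunit of the transcription factor NF-Y. MIR30A and MIR30C-2 lie within the unnamed gene LOC102157778, and no gene spans MIR30B or MIR30D. The arrays had a single probe for miR-30c, which cannot tell its 2 precursors apart.

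Among the 5p probes, ssc-miR-30b-5p had the highest signal, 11402 in the Bama pool and 10370 in the Landrace pool, ranks 13 and 19 among the 355 probes. ssc-miR-30c followed with 10186 and 9537, ranks 19 and 22. ssc-miR-30d gave 8361 and 8953, with rank 25 on each array. All 3 thus ranked among the 25 highest signals in either breed. For ssc-miR-30a-5p the pools gave 7566 (Bama) and 6628 (Landrace), and for ssc-miR-30e-5p they gave 5782 and 5469. The order of the 5 signals was the same on both arrays, although probes bind their targets unequally, so it is not an order of molecule numbers. Whether neighbours in this order differ beyond the spread between pigs cannot be told from 1 array per breed. The 5 signals together made up 6.22% of the summed signal of the Bama array and 6.10% of the Landrace array.

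The 3p probes lay far below them. The brightest, ssc-miR-30e-3p, gave 553 in the Bama pool and 298 in the Landrace pool, ranks 126 and 138. The pools gave 168 and 144 for ssc-miR-30a-3p, in the same order, and 89.2 and 81.9 for ssc-miR-30b-3p. Both of these were below 200 on each array. The study's detection labels, used here without their values, list both as detected in Bama minipigs only and the other 6 as detected in both breeds, so no ratio is read for these 3p probes. Together the 3p probes made up 0.117% of the summed signal of the Bama array and 0.0781% of the Landrace array.

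**Figure D1:**
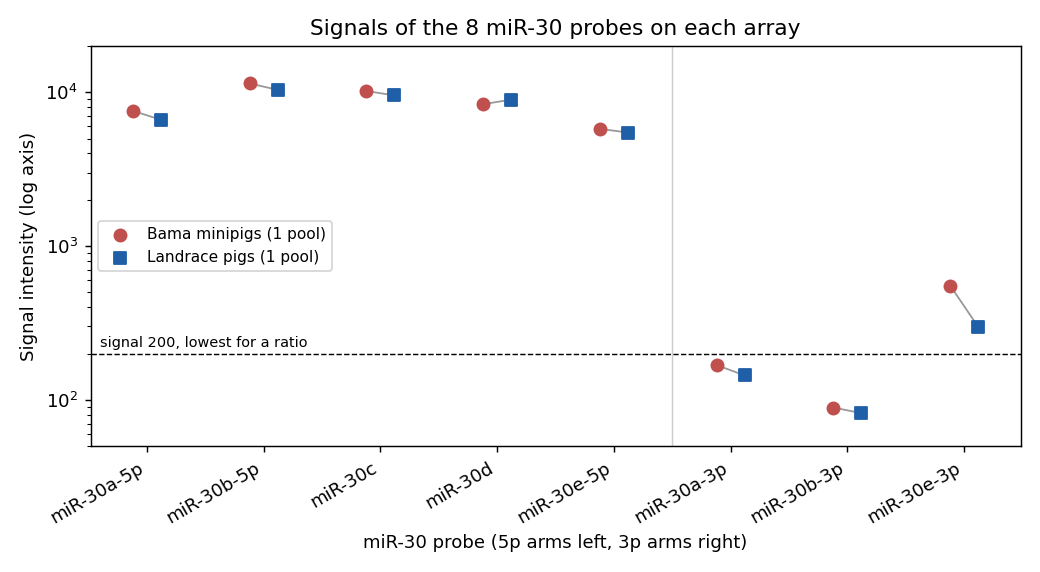
Signal intensity (log axis) of each miR-30 probe, with the Bama minipig pool as a red circle and the Landrace pool as a blue square, 1 array each and no error bars because there are no replicates. The 5p probes lie between 5469 and 11402 on both arrays, and the 3p probes lie at 553 or below, with only ssc-miR-30e-3p above the dashed line at 200.

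Between the breeds, the 5p probes differed by small ratios. As Bama minipigs over Landrace pigs, the log2 ratio was 0.19 for ssc-miR-30a-5p, 0.14 for ssc-miR-30b-5p, 0.095 for ssc-miR-30c and 0.080 for ssc-miR-30e-5p. ssc-miR-30d was the single 5p probe with the lower signal in Bama minipigs, at -0.099. The largest of these differences, that of ssc-miR-30a-5p, was 14.2% of the Landrace signal. The signs depended on the scaling of the arrays. The sign of ssc-miR-30e-5p turned under 4 of 7 alternative scalings and offsets (median scaling, both forms of 75th percentile scaling and quantile normalization), that of ssc-miR-30c under 2 (both forms of 75th percentile scaling) and that of ssc-miR-30b-5p under 1 (75th percentile scaling over all probes). The log2 ratio of ssc-miR-30d was 0 after quantile normalization and below 0 under the other 6. An offset keeps the order of the signals of a probe, so the offsets could turn no sign. Median scaling and both forms of 75th percentile scaling lowered every log2 ratio. Only quantile normalization and cyclic loess could thus have turned the sign of ssc-miR-30d. ssc-miR-30a-5p stayed above 0 under all 7, down to 0.0031.

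None of the 5p probes was past 1.5-fold, whereas 33 of the 145 probes with 200 or more on both arrays were, which is 22.8%. At the signals of these miRNAs such ratios were rarer. Of the 45 probes with a mean signal of 5000 or more, 2 were past 1.5-fold (4.44%), both higher in Bama minipigs. The median log2 ratio taken without its sign was 0.099 for the 5p probes, 0.11 for the 40 other probes of that signal class and 0.28 for the 145 probes. The small 5p ratios thus resembled those of other bright probes. The median log2 ratio was 0.095 for the 5p probes and -0.031 for the 145 probes.

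ssc-miR-30e-3p was the single miR-30 probe past 1.5-fold, and no miR-30 probe was past 2-fold. This is 1 of the 6 probes with a ratio, beside 15.9% of the 145 probes past 1.5-fold and higher in Bama minipigs (23 of 145), so the share in the family was near that of the arrays. Past 2-fold in either direction were 12.4% of the 145. The log2 ratio of ssc-miR-30e-3p, 0.89, was exceeded in size by 21 of the 145 probes. It stayed above 1.5-fold under each of the 7 alternative scalings and offsets, lowest after quantile normalization, at 0.588 against a limit of about 0.585. There is no replicate with which to compare the difference.

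**Figure D2:**
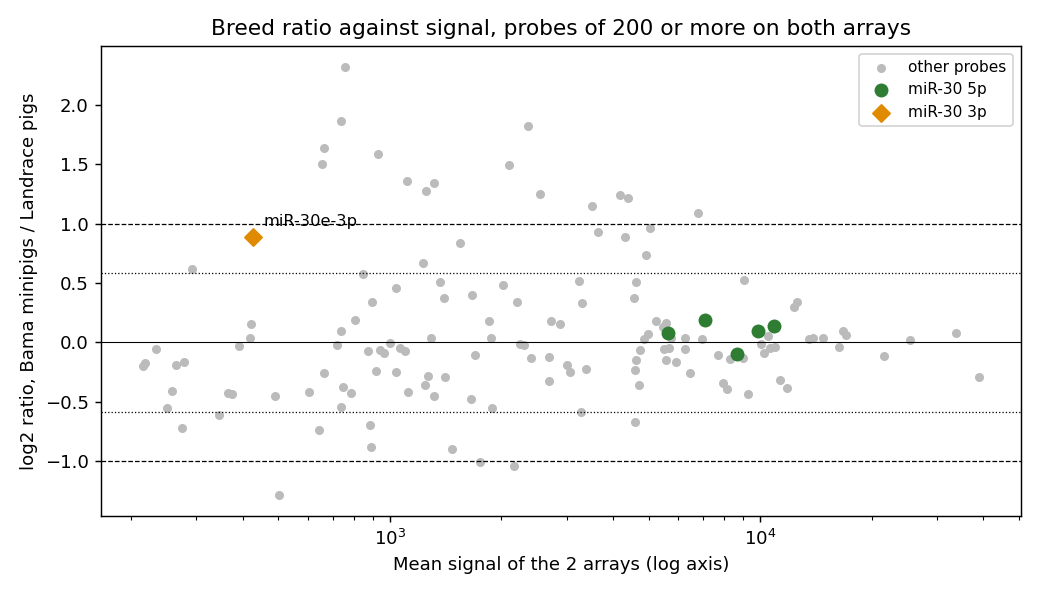
Breed log2 ratio (Bama minipigs / Landrace pigs) against the mean signal of the 2 arrays (log axis) for the 145 probes with 200 or more on both arrays, with miR-30 5p probes as green circles, ssc-miR-30e-3p as an orange diamond and other probes in grey. Dotted lines mark 1.5-fold and dashed lines 2-fold. The 5p probes lie close to 0 among other bright probes, and ssc-miR-30e-3p lies at 0.89.

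The probes whose log2 ratio lay nearest that of ssc-miR-30e-3p were ssc-miR-29b at 0.89, ssc-miR-204 at 0.93 and ssc-miR-218b at 0.83. With 1 array per breed, this likeness rests on a single ratio per probe. Striated muscle miRNAs were mixed in direction. Of the 8 probes for miR-1, miR-133, miR-206, miR-208 and miR-499, a list completed after the values were seen, 4 were higher in Bama minipigs and 4 in Landrace pigs. Their signals summed to 1538 in the Bama pool and 667 in the Landrace pool. ssc-miR-1, ssc-miR-133a-3p and ssc-miR-133b, at 426, 370.4 and 439 in the Bama pool, were below 200 in the Landrace pool, whereas ssc-miR-206 had 117 (Bama) and 278 (Landrace). The other 4 were below 200 on both arrays, so their directions are uncertain. None of the 8 reached 200 on both arrays, and no ratio is read for them. The blood cell miRNA ssc-miR-451 had 5286 and 5841. The part of other tissue in the miR-30 values was not tested.

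Paralogs that share a seed can be compared by the spread of their breed ratios. On the arrays, 9 seeds were carried by 3 or more probes of 200 or more. The log2 ratios of the 5 miR-30 5p probes spanned 0.29, from ssc-miR-30d to ssc-miR-30a-5p, the second narrowest of the 9. The narrowest was the group of ssc-miR-99a, ssc-miR-99b and ssc-miR-100, which spanned 0.076 around a median of -0.39. ssc-miR-106a, ssc-miR-17-5p and ssc-miR-20 spanned 0.31, and the probes Y-1, Y-2 and Y-3 spanned 0.31 as well. The miR-92 and miR-363 group spanned 0.40, the miR-181 group 0.42 and the miR-148 and miR-152 group 0.57. In the miR-15 and miR-16 group, which also has 5 probes, the span was 0.77, with ssc-miR-195 at 0.58 as its highest. The 7 probes with the let-7 seed spanned 1.80, up to 1.83 for ssc-miR-98. The group sizes differ, and a larger group has more room for a wide span. The groups also differ in signal. The 5 miR-30 5p signals were 5469 or more on both arrays, whereas some groups include dimmer probes, such as ssc-miR-424 at 229 (Bama) and 238 (Landrace). Without its sign, the median log2 ratio was 0.11 for the 40 other probes with mean signals of 5000 or more. It was 0.28 for all 145 probes of 200 or more. Whether signal level, or RNA shared between near-identical 5p probes, narrowed the miR-30 span was not tested. The span of the miR-30 5p probes was the narrowest of the 9 after quantile normalization, at 0.21.

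**Figure D3:**
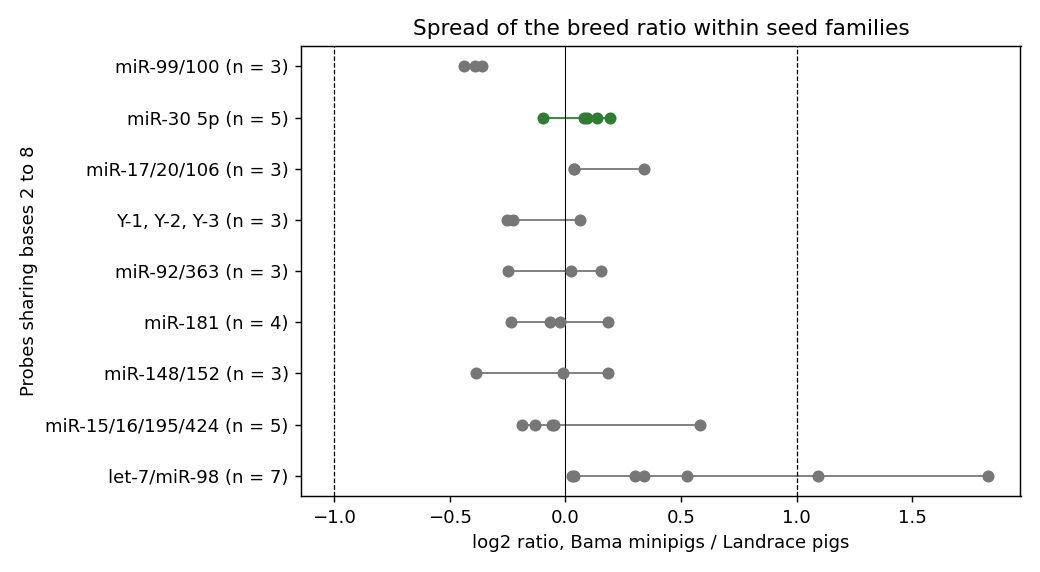
Breed log2 ratio (Bama minipigs / Landrace pigs) for each probe (points) in the 9 groups that share bases 2 to 8, with a line from the lowest to the highest, ordered by this span and with the number of probes in parentheses. Dashed lines mark 2-fold. The miR-30 5p group, in green, spans 0.29 around 0, and the let-7 group spans 1.80.

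The 5p probes were also set side by side in pairs. ssc-miR-30d and ssc-miR-30e-5p, the closest pair of 5p sequences at 2 edits (C12U and C13U, from ssc-miR-30d), differed by 0.18 on the log2 scale. ssc-miR-30c and ssc-miR-30e-5p, which are 6 edits apart, differed by 0.015. By neighbouring precursor genes, ssc-miR-30b-5p and ssc-miR-30d differed by 0.24, ssc-miR-30a-5p and ssc-miR-30c by 0.096, and ssc-miR-30e-5p and ssc-miR-30c by 0.015. The miR-30c probe enters 2 of these pairs, since its precursors are not told apart. Differences between probes are unchanged when an array is scaled by a constant, but not under quantile normalization. The log2 ratios were then 0 for ssc-miR-30d, -0.026 for ssc-miR-30e-5p and 0.077 for ssc-miR-30c. The pair at 2 edits thus lay closer together than the pair at 6 edits, the reverse of the order as deposited.

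The arms of a precursor can also be compared between the breeds. The signal of ssc-miR-30e-5p was 10.5 times that of ssc-miR-30e-3p on the Bama minipig array and 18.3 times on the Landrace array. Either value alone depends on how well the probes bind, which is taken here to be the same on both arrays. The arm shift, the log2 ratio of the 5p probe minus that of the 3p probe, was -0.81 for miR-30e. The change lay mostly in the 3p arm, which had a log2 ratio of 0.89, beside 0.080 for the 5p arm.

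Of 48 precursors with both arms on the arrays, 7 had 200 or more for both arms in both breeds. The arm shift of miR-30e was the third in size among them. It followed miR-4334, at 1.71, where ssc-miR-4334-5p was higher in Bama minipigs (1006 against 324) and ssc-miR-4334-3p was not (852 against 895). It was near that of miR-199b, at -0.87. The shifts of miR-425, miR-126 and miR-199a were 0.30 to 0.38 in size, and that of miR-151 was 0.00018. The median size over the 7 was 0.38, and 3 were past 1.5-fold. With the minimum lowered to 100, miR-30e was the fifth of 12. miR-30a entered among the 12 with a shift of -0.031, the eleventh in size, although ssc-miR-30a-3p is not labelled as detected in Landrace pigs. The 3p arms of miR-30a and miR-30e, 1 base apart, thus had unlike measured signals, with 168 (Bama) and 144 (Landrace) for ssc-miR-30a-3p and 553 and 298 for ssc-miR-30e-3p. How far either probe also bound the other miRNA was not tested, so these signals, and the arm shifts that use them, may share RNA.

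**Figure D4:**
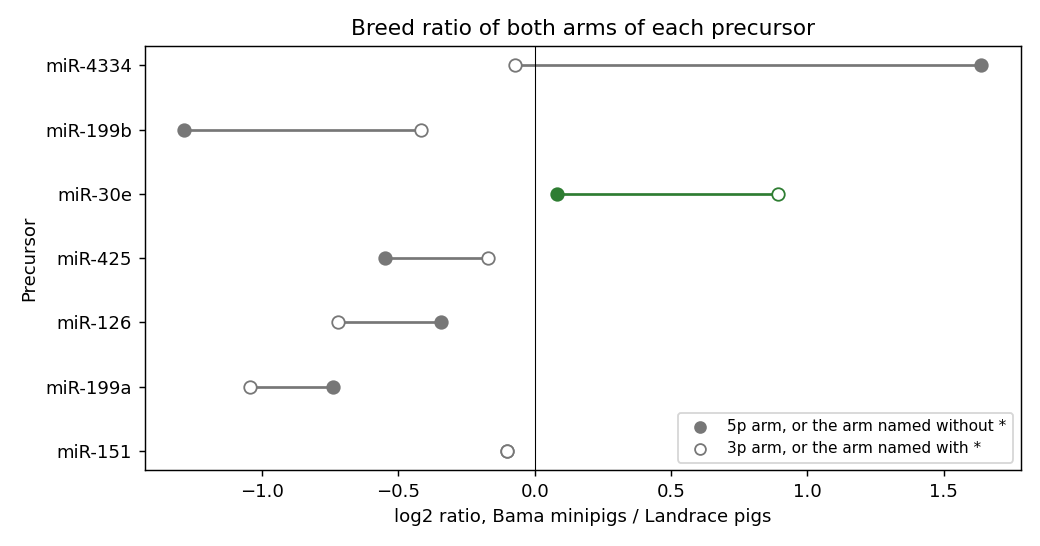
Breed log2 ratio (Bama minipigs / Landrace pigs) for both arms of the 7 precursors with 200 or more for each arm on both arrays. Filled points are 5p arms or arms named without an asterisk, open points are 3p arms or arms named with one, and the length of a line is the size of the arm shift. The arms of miR-30e, in green, lie at 0.080 (5p) and 0.89 (3p).

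**Figure D5:**
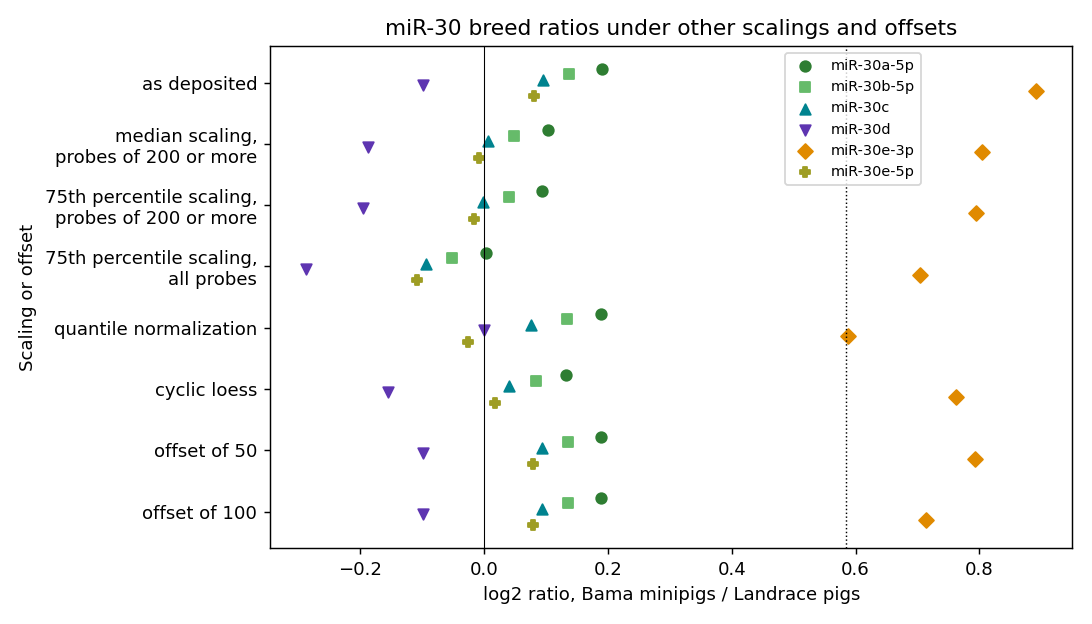
Breed log2 ratio (Bama minipigs / Landrace pigs) of the 6 miR-30 probes with 200 or more on both arrays, as deposited and under 7 other scalings or offsets (rows). The dotted line marks 1.5-fold. The 5p probes stay between -0.29 and 0.19 and change sign in places, and ssc-miR-30e-3p stays between 0.59 and 0.89.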

How the data were processed

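The authors hybridized 1 pool of 3 pigs per breed to a custom chip with probes for the porcine miRNAs of miRBase and 100 added probes. They removed the background, applied a LOWESS normalization and deposited a mean signal intensity over the repeat spots of each probe, on a linear scale. The values used here hold no background or spot data. Mature sequences and detection labels were read from the supplementary table of probes, without its values.

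Log2 ratios of the deposited intensities were computed with no further scaling and read where both signals were 200 or more. Rules of size (1.5-fold and 2-fold) took the place of a test. The groups of 3 or more probes share bases 2 to 8, and the arm pairs were matched by name. Other probes named are the 3 largest arm shifts, the seed groups and the 3 ratios nearest ssc-miR-30e-3p. The remaining arm pairs of the 7 and the marker miRNAs are named for completeness. The members, lists and rules were chosen with earlier results of these data known.

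Alternatives were median scaling, 75th percentile scaling over probes of 200 or more or over all probes, quantile normalization, cyclic loess with 3 iterations, offsets of 50 and 100, and other minimum signals. A log2 value was taken as unchanged within 0.1 and a count within 1.5 times. The scalings were tested on simulated data, in which the planted changes were larger than any miR-30 ratio here and lay in probes brighter than ssc-miR-30e-3p. How they treat smaller changes or dimmer probes was not tested. Python 3.11.15, numpy 2.4.6, pandas 2.3.3, matplotlib 3.10.9, R 4.3.3 and limma 3.58.1 were used.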

Additional observations from a re-analysis of the deposited data

How the results depend on the processing

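No paired analysis was possible because each breed had 1 pooled sample on 1 array. The median log2 ratio of the 5p probes, 0.095, was -0.093 after 75th percentile scaling over all probes. This scaling lowered the median of the 145 probes by 0.19, from -0.031 to -0.22. Scaling by a constant moves all log2 ratios alike, so the gap between these medians could not change and is no check. The arm shift of miR-30e, -0.81, was -0.61 after quantile normalization and -0.64 with an offset of 100. The numbers of miR-30 probes past 1.5-fold (1 higher) and 2-fold (0) were the same under all alternatives. Part of this was fixed beforehand. The other minimum signals keep ssc-miR-30e-3p and could add only ssc-miR-30a-3p and ssc-miR-30b-3p, whose signals differed by less than 1.5-fold. The offsets and the scalings by a constant lower the log2 ratio of ssc-miR-30e-3p, so they could not bring it past 2-fold. Over all probes, 23 higher and 10 lower past 1.5-fold (69.7% higher) became 20 and 24 (45.5%) after 75th percentile scaling over all probes and 20 and 20 (50%) after quantile normalization, and 96 and 81 with no minimum signal. Past 2-fold, 15 higher and 3 lower became 13 and 5 (72.2%, from 83.3%) after 75th percentile scaling over all probes, 15 and 1 (93.8%) with an offset of 100, and 69 and 54 with no minimum. The 75th percentile scaling lowers every log2 ratio by the same 0.19, which takes probes out of the higher count and into the lower one. An offset makes every ratio smaller in size, and with no minimum the dim probes enter the counts. Why quantile normalization moved the counts was not tested. The span of the 5p ratios moved by less than 0.1.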
